A study of Mus musculus with 11 samples.

Results

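Trigeminal ganglia, which hold the sensory neurons of the face, express receptors for the survival factors that these neurons need while their axons reach their targets. Transcript signals were examined for 10 such receptor genes: Ngfr, Ntrk2 and Ntrk3 of the neurotrophin receptors, Ret, Gfra1, Gfra2 and Gfra3 of the GDNF family receptors, and Lifr, Il6st and Cntfr of the cytokine receptors. Every probe set annotated to 1 of these genes and to no other was taken, which gave 23 of the 24899 probe sets and 10 of the 13675 named genes. The ganglia came from mouse embryos at embryonic day 13.5 of 3 genotypes: wild-type, heterozygote and knockout for Brn3a, a POU-domain transcription factor encoded by Pou4f1. For each of the 11 arrays, 10 to 12 ganglia were pooled by genotype. The 6 Affymetrix U74Av2 arrays were 2 wild-type, 2 heterozygote and 2 knockout, and the 5 U74Bv2 arrays were 1 wild-type, 2 heterozygote and 2 knockout. The sources used here do not give the strain, the form of the Pou4f1 allele or whether both array types received the same pools. A p-value therefore measures the spread between these pools.

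Neurotrophins signal through the tyrosine kinase receptors of the Trk family, and the low-affinity receptor p75, encoded by Ngfr, binds all of them and modulates Trk signalling. The GDNF family ligands bind a GPI-anchored GFRα coreceptor, and the complex activates the tyrosine kinase Ret. Cytokines such as LIF and CNTF act through a receptor complex of gp130, encoded by Il6st, the LIF receptor and, for CNTF, the coreceptor encoded by Cntfr. Brn3a is made by sensory neurons as they leave the cell cycle, and trigeminal neurons are known to be lost later in gestation in its absence. The comparisons ask which of these receptors differed in transcript level with the Brn3a genotype at this age.

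Of the receptor probe sets, 14 (8 genes) passed the filter on dim probe sets, which kept those with a mean log2 signal above the 40th percentile of their array type. On U74Av2 they were 8 of 15 and on U74Bv2 6 of 8. Ret and Ntrk3 had dim probe sets only, and their differences come from a fit without the filter. A difference is given on the scale of log2(signal + pseudocount), with its standard error (SE) from a limma model of genotype, and was called where the Benjamini-Hochberg adjusted p over all probe sets tested was below 0.05. This scale understates the change of dim probe sets, and the level of 1 probe set cannot be set against that of another.

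The promoter of Ngfr is shown because Ngfr was the receptor called in every comparison of the knockout on its array type, and that of Ntrk2 because its brightest probe set read highest in the knockout. Both are the 250 bases before the annotated start in the RefSeq table of GRCm38.p6, in which 6 of the 10 receptors were searched. Ntrk3, Ret and Gfra2 had no entry used in the search. Gfra3 was left out of it by choice, so the motif results say nothing of Gfra3. The Ngfr stretch lies at chr11:95587699-95587948 on the minus strand and the Ntrk2 stretch at chr13:58806319-58806568 on the plus strand. Capitals mark GGGCGG or its reverse complement CCGCCC, the GC box that Sp1-type factors are known to bind, a motif picked after the sequences were seen.
Ngfr: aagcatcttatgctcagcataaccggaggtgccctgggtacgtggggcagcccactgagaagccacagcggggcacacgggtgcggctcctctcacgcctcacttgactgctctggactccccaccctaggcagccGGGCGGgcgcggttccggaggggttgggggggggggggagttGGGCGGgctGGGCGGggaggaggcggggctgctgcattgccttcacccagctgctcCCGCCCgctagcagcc
Ntrk2: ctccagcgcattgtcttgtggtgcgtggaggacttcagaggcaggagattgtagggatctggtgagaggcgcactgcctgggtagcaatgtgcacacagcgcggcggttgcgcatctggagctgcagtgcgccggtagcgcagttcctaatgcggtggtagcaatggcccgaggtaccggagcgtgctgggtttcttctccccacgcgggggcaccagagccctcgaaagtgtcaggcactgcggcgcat
The Ngfr stretch held 4 GC boxes and had a GC content of 70.4%, and the Ntrk2 stretch held 0 and had a GC content of 62.8%, where the median over 32851 promoters of the table was 52.4%. A GC box stood in 32.7% of all promoters of this length. The AT-rich motif of Brn3 proteins was searched on both strands in nested forms: ATAATTAAT stood in 0.259% of all promoters, ATAATTA in 2.50% and TAATTA in 4.84%. No form stood in these 250 bases of Ngfr, Ntrk2, Gfra1 or Il6st, or in the 2 promoters listed for Lifr and the 6 listed for Cntfr. This says only that these letters are not in these windows.

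Pou4f1 itself (probe set 111104_at, U74Bv2) read 3313 in wild-type, 2196 and 3570 in heterozygote and 550 and 904 in knockout arrays. Both knockout arrays were lowest, by -1.99 ± 0.25 (SE) against all other arrays (adjusted p = 0.00292). The sources used here do not say whether this probe set covers sequence removed by the knockout. Over all probe sets tested on U74Av2, 0.255% were called between knockout and wild-type, 0.188% between knockout and heterozygote, 0.872% between knockout and all other arrays, and 0% between heterozygote and wild-type. On U74Bv2 these shares were 1.40%, 1.71%, 2.93% and 0%. Between heterozygote and wild-type, 52 of 7453 and 283 of 7446 probe sets had an unadjusted limma p under 0.05. Of 17 markers of sensory neurons, U74Av2 measured 15 and U74Bv2 6, with 0 at a signal of 0. Their summed signal on U74Av2 was 94394 to 99266 in wild-type, 105044 to 126385 in heterozygote and 100452 to 106714 in knockout arrays. The knockout arrays lay within the range of the other arrays there, with wild-type lowest, and on U74Bv2 they read 53939 and 62649 against 58291 to 63633 in the others. The median log2 difference between knockout and all other arrays was -0.08 over the 15 neuronal markers tested on U74Av2 and -0.22 over the 5 on U74Bv2, where 1 was positive. Of these limma called 0. At an unadjusted p under 0.05 there were 3 on U74Av2 (Prph, Elavl4 and Nefl) and 1 on U74Bv2 (Elavl4), each lower in the knockout. Over all probe sets these counts were 590 of 7453 and 915 of 7446. With the array number as a block 1 was called on U74Av2, beside 3.57% of all probe sets. It was Prph (-0.92 ± 0.24, SE, adjusted p = 0.212 without and 0.00669 with the block). The summed signal of 12 of 15 Schwann cell and satellite glia markers on U74Av2 was 17315 to 18680, 19458 to 21121 and 21719 to 24715 in the same order. That of 14 of 15 mesenchyme markers was 13103 to 14117, 14222 to 14265 and 15913 to 17314. In both lists the sum of the knockout arrays was higher than that of every other array, with 0 markers at 0. Fabp7, the brightest glial marker, overlapped, at 16258 and 12753 in knockout arrays and 9736 to 14450 in the others. The sums of endothelial, macrophage, red blood cell, skeletal muscle and brain markers overlapped between knockout and other arrays. Of the 2 genes of the brain list tested on U74Av2, limma called Meis2 lower in the knockout than in all other arrays (-1.75 ± 0.22, SE, adjusted p = 0.0122). The second, Neurog1, went the other way and was not called (0.80 ± 0.33, SE, adjusted p = 0.576). Neither gene was shown here to be particular to brain, and the ganglion itself may express them. The list is therefore not read as a measure of brain tissue. Over the 9 glial and 11 mesenchymal markers tested on U74Av2, the median difference between knockout and all other arrays was 0.25 and 0.15. Limma called 0 in either list. With the array number as a block 1 was called, Postn of the mesenchymal list (0.52 ± 0.19, SE, adjusted p = 0.464 without and 0.0234 with it). In bulk ganglia, fewer cells of a type and less RNA per cell cannot be told apart.

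Ngfr was the receptor with the clearest loss. Its probe set 108762_at on U74Bv2 read 2744 in wild-type, 3654 and 2781 in heterozygote and 1107 and 1055 in knockout arrays. The knockout arrays were far below every other array, and the single wild-type array lay just below the heterozygotes. The mean was 1081 ± 36.9 (SD, n = 2) in the knockouts and 3060 ± 515 (SD, n = 3) in the other arrays. Against all other arrays Ngfr was 2.73-fold lower, a log2 difference of -1.45 ± 0.16 (SE) with a 95% interval from -1.81 to -1.09 (adjusted p = 0.00148). Against the heterozygotes it was 2.87-fold lower, -1.52 ± 0.18 (SE, adjusted p = 0.00521), and against the wild-type array 2.47-fold lower, -1.31 ± 0.22 (SE, adjusted p = 0.0319). The last call was lost without the filter on dim probe sets (adjusted p = 0.109) and without the intensity trend of the variance (adjusted p = 0.114). Heterozygotes and the wild-type array differed by 0.21 ± 0.22 (SE), within the spread (adjusted p = 1.00). Ngfr is known to be made by neural crest and Schwann cells as well as by neurons. Of the glial list, 2 of 15 markers were measured on U74Bv2, with 0 at 0. Their summed signal was 15882 to 17207 in the knockout arrays against 13959 to 14115 in the others. Limma called neither Ednrb (0.19 ± 0.17, SE, adjusted p = 0.746) nor Sox10 (0.34 ± 0.17, SE, adjusted p = 0.499). The part of changed cell numbers in the Ngfr result was not tested.

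**Figure D1:**
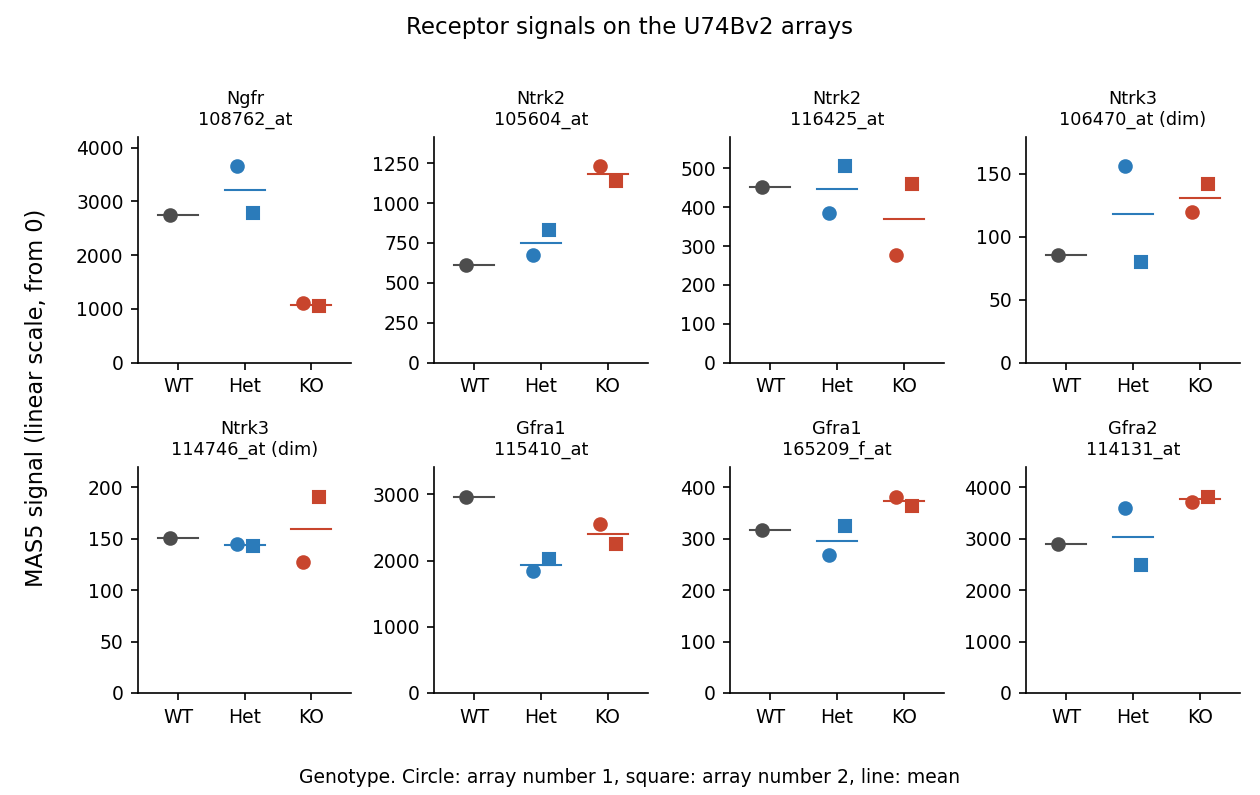
Signal of each receptor probe set on the U74Bv2 arrays (linear MAS5 signal from 0) by genotype: wild-type (WT), heterozygote (Het) and knockout (KO). Circles are array number 1, squares array number 2 and lines the mean; "dim" marks probe sets below the filter. The Ngfr knockout arrays (1107 and 1055) lie below all others, and those of Ntrk2 105604_at (1230 and 1140) above all others.

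Ntrk2 encodes TrkB, the receptor of BDNF and NT-4, and its probe sets did not move together. On U74Bv2, 105604_at read 613 in wild-type, 672 and 829 in heterozygote and 1230 and 1140 in knockout arrays. Both knockout arrays were above all others, and the mean was 1185 ± 63.6 (SD, n = 2) against 705 ± 111 (SD, n = 3). The log2 difference was 0.72 ± 0.16 (SE), 1.65-fold, with a 95% interval from 0.35 to 1.09, and it missed the threshold (adjusted p = 0.0570). Without heterozygote array 2 it was 0.84 and passed (adjusted p = 0.0341). The second probe set there, 116425_at, read 452, then 386 and 505, then 277 and 460. Its genotypes overlapped and its difference was -0.28 ± 0.23 (SE), with a 95% interval from -0.80 to 0.25 (adjusted p = 0.735). The 2 intervals do not overlap, although both probe sets are annotated to Ntrk2. Which transcripts each probe set matches was not analysed here. On U74Av2, 99069_at was dim, at 12.6 to 34.3, with overlapping genotypes. The glial marker sum given above was higher in the same knockout arrays as 105604_at, and its part in this difference was not tested.

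Ntrk3 encodes TrkC, the receptor of NT-3, and was dim on both array types. On U74Av2, 95334_at read 88.3 and 22.7 in wild-type, 21.4 and 33.3 in heterozygote and 21.7 and 27.0 in knockout arrays. A single wild-type array was high there. On U74Bv2, 106470_at lay between 79.7 and 156 and 114746_at between 127 and 191. The genotypes overlapped for each of the 3 probe sets, and the 95% intervals of the difference between knockout and other arrays reached from -0.87 to 0.39, from -0.47 to 0.95 and from -0.55 to 0.70. None of these differences was told apart from 0. The intervals do not bound the true change of Ntrk3, since the scale with pseudocount understates the change of dim probe sets.

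Ret, the signalling kinase of the GDNF family receptors, had a single dim probe set (101828_at, U74Av2), and it was low in the knockout. The signal was 173 and 185 in wild-type, 188 and 268 in heterozygote and 30.2 and 34.1 in knockout arrays. No knockout array came near the others, and the mean was 203 ± 43.3 (SD, n = 4) in the other arrays and 32.1 ± 2.76 (SD, n = 2) in the knockouts. The knockout signals lay below the pseudocount of 50.0, and detection calls were not used here, so no ratio of the signals is given. In the fit without the filter the difference on the log2 scale with pseudocount was -1.61 ± 0.25 (SE), with a 95% interval from -2.19 to -1.03 (adjusted p = 0.0448). That fit called 0.491% of all probe sets and, of the 15 receptor probe sets, 1, which was Ret. Separately, Ret differed by -1.48 ± 0.30 (SE) from wild-type (adjusted p = 0.309) and by -1.74 ± 0.30 (SE) from the heterozygotes (adjusted p = 0.208), and neither passed. With knockout array 1 left out Ret passed the filter but was not called (adjusted p = 0.168), nor was it without knockout array 2 (adjusted p = 0.119). Heterozygotes and wild-type arrays differed by 0.26 ± 0.30 (SE).

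Gfra3 encodes GFRα3, the coreceptor of artemin, which is known from nociceptive neurons. Its probe set 102926_at (U74Av2) read 1143 and 1454 in wild-type, 1507 and 1490 in heterozygote and 738 and 848 in knockout arrays. The knockout arrays were lowest, without overlap, at a mean of 793 ± 77.9 (SD, n = 2) against 1398 ± 172 (SD, n = 4). The difference was -0.77 ± 0.18 (SE), 1.71-fold lower, with a 95% interval from -1.18 to -0.37, and was not called (adjusted p = 0.144). Arrays of the same number deviated together on U74Av2, and with that number as a block the SE was 0.13 and the difference was called (adjusted p = 0.0130). Within number 1 the difference was -0.79 and within number 2 it was -0.76. Against the heterozygotes alone it was -0.88 ± 0.22 (SE), also called with the block only (adjusted p = 0.389 without and 0.0335 with it), and that call was lost with the block and no filter together (adjusted p = 0.0710). Against wild-type it was -0.67 ± 0.22 (SE) and was called in neither fit (adjusted p = 0.700 without and 0.0792 with the block). The block raised the calls over all probe sets to 3.57% between knockout and all other arrays, 1.73% between knockout and heterozygote and 1.74% between knockout and wild-type. In the first 2 of these comparisons, 1 of the 8 receptor probe sets was called with it, Gfra3 each time, and in the last 0 were.

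Gfra1, the coreceptor of GDNF, showed no call on any of its 3 probe sets. On U74Av2, 93872_at read 425 and 368, then 365 and 382, then 330 and 357 in the order wild-type, heterozygote, knockout. The knockout arrays were the lowest by a narrow margin, and the difference of -0.14 ± 0.17 (SE) had a 95% interval from -0.53 to 0.24. On U74Bv2, 115410_at read 2968 in wild-type, 1850 and 2020 in heterozygote and 2548 and 2245 in knockout arrays. There the wild-type array stood above all others and the knockouts lay between it and the heterozygotes. Heterozygotes differed from the wild-type array by -0.61 ± 0.20 (SE), at an unadjusted p of 0.0144 and an adjusted p of 1.00, and knockout from all other arrays by 0.10 ± 0.20 (SE). The third, 165209_f_at, whose suffix marks a design that can match several transcripts, was 316 in wild-type, 269 and 324 in heterozygote and 382 and 364 in knockout arrays (0.26 ± 0.19, SE, adjusted p = 0.687). The direction thus differed between the probe sets, each within its spread.

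Gfra2, the coreceptor of neurturin, was likewise not called. The probe set 114131_at (U74Bv2) read 2908 in wild-type, 3596 and 2484 in heterozygote and 3707 and 3822 in knockout arrays. The knockouts were the highest, but 1 heterozygote array was close, and the difference of 0.34 ± 0.17 (SE) had a 95% interval from -0.04 to 0.72 (adjusted p = 0.483). On U74Av2, 92449_at was 136 and 146 in wild-type, 133 and 159 in heterozygote and 174 and 200 in knockout arrays, a difference of 0.29 ± 0.20 (SE, adjusted p = 0.924) without overlap. The other, 92448_s_at, lay between 498 and 676 with overlapping genotypes, and its difference was 0.02 ± 0.19 (SE), with a 95% interval from -0.42 to 0.45.

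**Figure D2:**
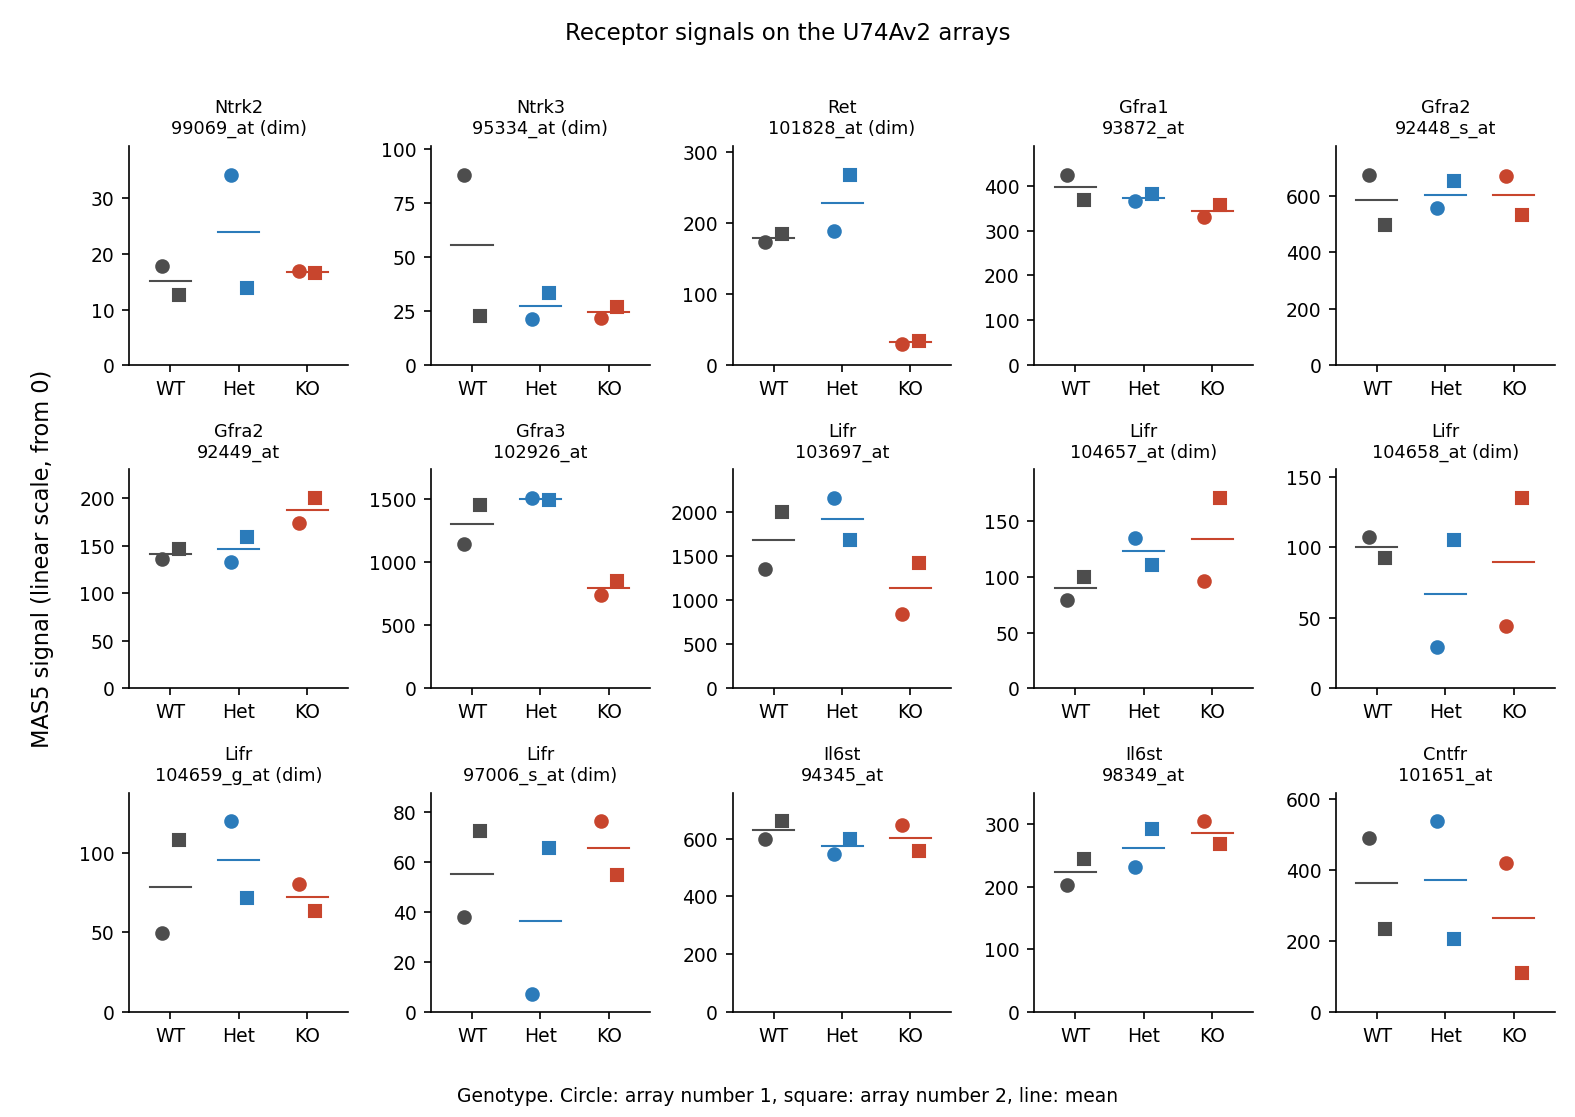
Signal of each receptor probe set on the U74Av2 arrays (linear MAS5 signal from 0) by genotype: wild-type (WT), heterozygote (Het) and knockout (KO). Circles are array number 1, squares array number 2 and lines the mean; "dim" marks probe sets below the filter. The knockout arrays of Ret (30.2 and 34.1) and Gfra3 (738 and 848) lie below all others, while Cntfr splits by array number.

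Of the cytokine receptors, Lifr, which encodes the LIF receptor, had the largest difference among the probe sets tested, and it was not called. The probe set 103697_at (U74Av2) read 1357 and 2002 in wild-type, 2158 and 1684 in heterozygote and 846 and 1421 in knockout arrays. The higher knockout array lay above the lower wild-type array, so the genotypes overlapped. The difference of -0.67 ± 0.26 (SE), with a 95% interval from -1.26 to -0.08, reached an unadjusted p of 0.0315 and an adjusted p of 0.512, and it was -0.98 within number 1 and -0.36 within number 2. The other 4 Lifr probe sets were dim, at 7.10 to 171, with overlapping genotypes.

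Il6st, which encodes the shared signal transducer gp130, did not pass the test on either probe set. The signals of 94345_at were 600 and 660 in wild-type, 548 and 599 in heterozygote and 647 and 558 in knockout arrays. The genotypes were intermingled, and the difference of 0.00 ± 0.16 (SE) had a 95% interval from -0.37 to 0.38, which bounds a change in either direction. The signals of 98349_at were 203 and 245, then 232 and 292, then 305 and 268, a difference of 0.21 ± 0.20 (SE) with a 95% interval from -0.25 to 0.66. Cntfr (101651_at), the CNTF-binding coreceptor, read 489 and 233 in wild-type, 536 and 205 in heterozygote and 420 and 109 in knockout arrays. Every array numbered 1 was above every array numbered 2, a wider split than that between genotypes. The difference of -0.50 ± 0.50 (SE), with a 95% interval from -1.65 to 0.64, was not called (adjusted p = 0.991), nor was it with the number as a block (adjusted p = 0.176).

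Across the receptors, the counts are given beside those over all probe sets. They are descriptions only, since the receptors were chosen with earlier results of these data known. On U74Av2, 0 of the 8 receptor probe sets tested were called by limma in any comparison without the block, and at an unadjusted p under 0.05 there were 1 against wild-type, 2 against heterozygote, 2 against all other arrays and 0 between heterozygote and wild-type. Over all 7453 probe sets these counts were 381, 391, 590 and 52. On U74Bv2, 1 of 6 was called in each comparison of the knockout, Ngfr each time, and 0 between heterozygote and wild-type, where 1 (Gfra1) had an unadjusted p under 0.05. At an unadjusted p under 0.05 there were 2 of 6 in each comparison of the knockout, beside 834, 720 and 915 of all 7446 against wild-type, heterozygote and all other arrays. The median difference between knockout and all other arrays was -0.07 over the 8 receptor probe sets and 0.02 over all tested on U74Av2, and 0.18 over the 6 and 0.02 over all on U74Bv2. On U74Av2 both knockout arrays were lower than every other array for 3 of 15 receptor probe sets (Ret, Gfra1 and Gfra3) and for 6.63% of all probe sets. They were higher for 1 of 15 (Gfra2) and for 8.66% of all. On U74Bv2 they were lower for 1 of 8 (Ngfr) and 11.7% of all, and higher for 3 of 8 (Ntrk2, Gfra1 and Gfra2) and 13.6% of all. With so few arrays, an arrangement without overlap is common over all probe sets.

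**Figure D3:**
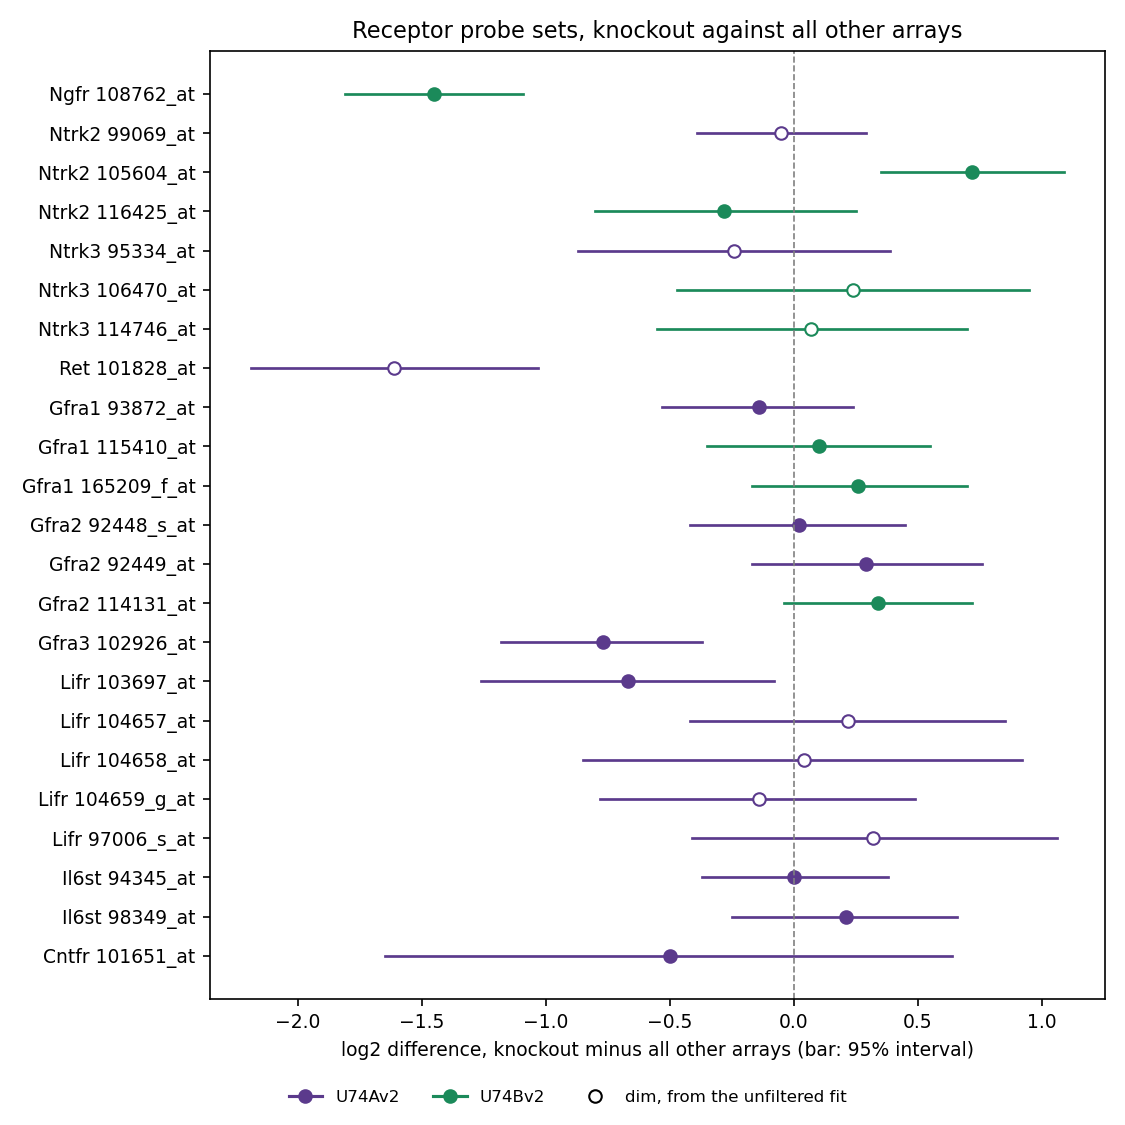
Log2 difference between knockout and all other arrays for each of the 23 receptor probe sets, with its 95% interval (bars), on U74Av2 (purple) and U74Bv2 (green). Open points are dim probe sets from the fit without the filter; the intervals of Ngfr (-1.81 to -1.09) and Ret (-2.19 to -1.03) lie farthest below 0, and that of Ntrk2 105604_at (0.35 to 1.09) lies above it.

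The other genes of these pathways were compared between knockout and all other arrays, beside a median of 0.02 over all probe sets on each array type. Limma called 0.872% of all probe sets on U74Av2 and 2.93% on U74Bv2 in this comparison. Each listed gene was taken by the brightest of its probe sets tested on an array type, and its other probe sets there were not examined. Counts at an unadjusted p under 0.05 stand beside 590 of 7453 probe sets on U74Av2 and 915 of 7446 on U74Bv2. Of the ligands, 8 of 16 had a probe set on U74Av2 and 6 were tested, of which limma called 0 in either direction, also at an unadjusted p under 0.05 (median 0.08). Their brightest were Nrtn, Pspn and Gdnf, the genes of neurturin, persephin and GDNF, at -0.27 ± 0.41, 0.03 ± 0.25 and 0.09 ± 0.19 (SE). On U74Bv2, 2 ligands had a probe set and 0 were tested. Of the other receptors and coreceptors, 1 of 6 tested on U74Bv2 rose (median 0.07). It was Sorcs2, a sortilin family protein known to pair with p75, at 831 in wild-type, 645 and 823 in heterozygote and 1425 and 1515 in knockout arrays. Separately, Sorcs2 was called against the heterozygotes (0.96 ± 0.18, SE, adjusted p = 0.0364) but not against the wild-type array. Both knockout signals stood well above the rest, 1.87-fold (0.90 ± 0.16, SE, adjusted p = 0.0164). The call was lost without heterozygote array 1 (adjusted p = 0.0647), knockout array 1 (0.0768) or knockout array 2 (0.124), and with the number as a block and no filter together (0.0524). On U74Av2 the only one tested was Ncam1, an alternative GDNF receptor, at 0.20 ± 0.18 (SE, adjusted p = 0.974).

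Of the receptor adaptors and signalling genes, 1 of 23 fell on U74Av2 (median 0.06) and 1 of 13 on U74Bv2 (median 0.00), and 0 rose on either. The first was Shc1, an adaptor that links Trk receptors, Ret and other tyrosine kinases to Ras. It read 1079 and 1140 in wild-type, 905 and 906 in heterozygote and 272 and 292 in knockout arrays. Separately, it was called against wild-type (-1.80 ± 0.20, SE, adjusted p = 0.0209) but not against the heterozygotes. All 4 other arrays were far above the knockouts, which were 3.17-fold lower (-1.66 ± 0.17, SE, adjusted p = 0.00415). That call was lost without knockout array 1 (adjusted p = 0.0610). The second was Dok4, an adaptor known to bind activated Ret, at 5214 in wild-type, 6060 and 3881 in heterozygote and 1869 and 1551 in knockout arrays. It too had no overlap and was 2.86-fold lower (-1.52 ± 0.20, SE, adjusted p = 0.00345). The other adaptor and signalling genes did not pass, 22 on U74Av2 and 12 on U74Bv2.

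Of the proteins that interact with p75 or act below it, 0 of 10 passed on U74Av2 (median 0.09) and 0 of 3 on U74Bv2 (median -0.14). The brightest on U74Av2 were Maged1, a p75-binding protein, at 0.47 ± 0.18 (SE, adjusted p = 0.504), Rhoa, the small GTPase, at 0.32 ± 0.15, and Mapk8, the kinase JNK1, at -0.01 ± 0.20. On U74Bv2 they were Mapk9, Bex3 and Prdm4, at -0.10 ± 0.16, -0.14 ± 0.19 and -0.36 ± 0.19 (SE). At an unadjusted p under 0.05 there were 1 and 0.

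Of the genes that signal below the cytokine receptors, 0 of 11 passed on U74Av2 and 0 of 5 on U74Bv2, with a median of -0.11 on each, where 4 and 2 had an unadjusted p under 0.05, against 590 of 7453 and 915 of 7446 over all. The brightest on U74Av2 were Stat3, the transcription factor activated through gp130, at -0.05 ± 0.25, Socs2, a feedback inhibitor, at -0.49 ± 0.16 (SE, adjusted p = 0.377), and the kinase Jak1 at -0.77 ± 0.27 (SE, adjusted p = 0.441). Socs2 had a like value on U74Bv2, -0.51 ± 0.15 (SE, adjusted p = 0.159), with 494 and 477 in the knockouts against 669 to 742 elsewhere. The other gene at an unadjusted p under 0.05 on U74Bv2, Stat5b, was higher in the knockout (0.67 ± 0.24, SE, adjusted p = 0.258). The 4 on U74Av2 were Jak1, Socs1, Socs2 and Socs3, each lower in the knockout. With the number as a block, 2 of the 11 were called on U74Av2: Socs3, a feedback inhibitor, at -0.89 (adjusted p = 0.0116) and the kinase Tyk2 at 1.20 (adjusted p = 0.0432), beside 3.57% of all probe sets. Their probe sets on U74Bv2 differed by -0.24 ± 0.18 (SE, adjusted p = 0.685) for Socs3 and 0.14 ± 0.22 (SE, adjusted p = 0.871) for Tyk2.

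Among response genes of neurotrophin and MAP kinase signalling, 0 of 11 passed on U74Av2 and 0 of 8 on U74Bv2, with a median of -0.02 on each, where 1 and 3 had an unadjusted p under 0.05, against the same numbers over all. The brightest were Etv4 (-0.10 ± 0.45, SE), Dusp1 (0.18 ± 0.26) and Dusp6 on U74Av2, and Spry2 (-0.49 ± 0.18, SE), Vgf (-0.59 ± 0.20) and Spred1 (-0.11 ± 0.13) on U74Bv2. Dusp6, a phosphatase of ERK induced by its activity, read 636 and 682 in wild-type, 647 and 792 in heterozygote and 1258 and 1668 in knockout arrays. Both knockout signals were above all others, by 1.03 ± 0.18 (SE, unadjusted p = 4.46e-04), and the adjusted p stood just at the threshold without passing it. Dusp6 was called with the number as a block (adjusted p = 0.00249). Its probe set on U74Bv2 differed by 0.50 ± 0.24 (SE, adjusted p = 0.478).

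**Figure D4:**
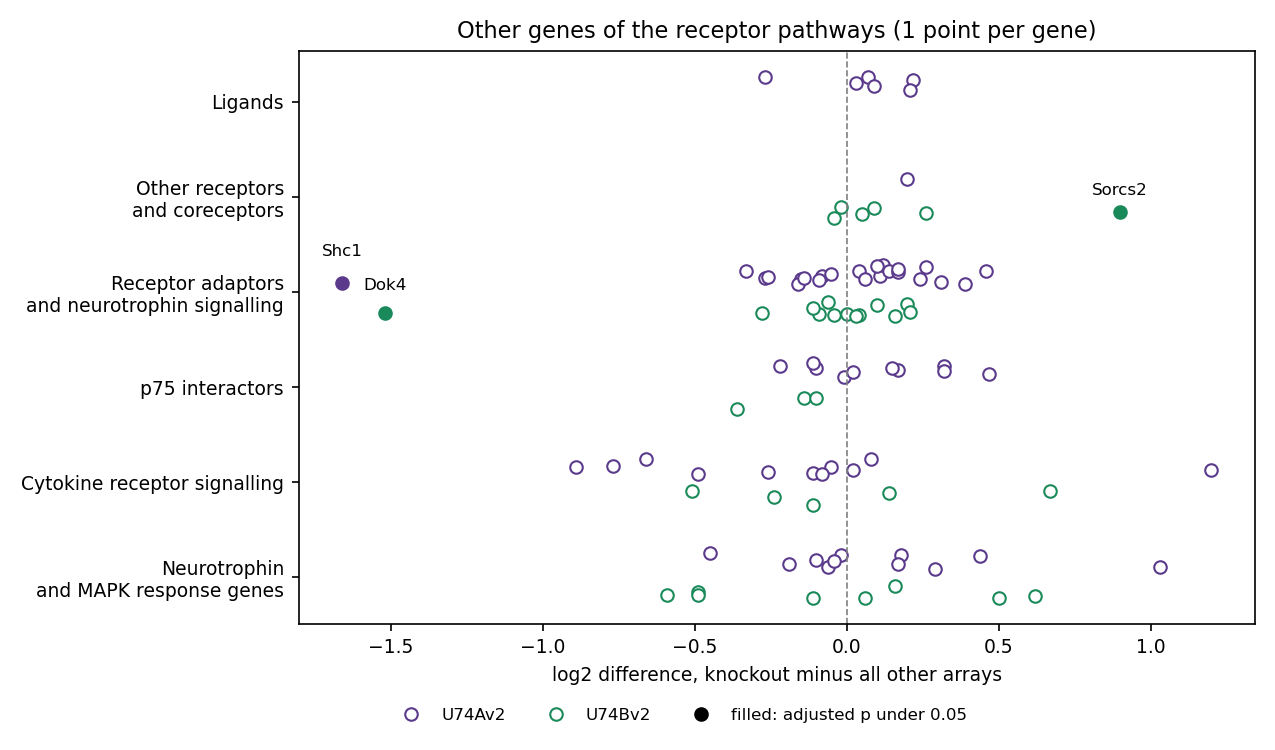
Log2 difference between knockout and all other arrays (horizontal axis) for the tested genes of 6 pathway lists (rows), 1 point per gene and array type, U74Av2 in purple and U74Bv2 in green; vertical scatter has no meaning. Filled points passed the adjusted p threshold: Shc1 (-1.66), Dok4 (-1.52) and Sorcs2 (0.90).

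The probe sets whose log2 signal followed a receptor most closely were listed for the receptor with the largest moderated t on each array type among probe sets above the filter, which leaves Ret out. For Gfra3, over the 6 U74Av2 arrays, they were Ptprr, a tyrosine phosphatase (Pearson r = 0.994), the GTPases Rac3 (0.993) and Rhou (0.991), the synaptic protein gene Cplx1 (0.990) and the phospholipase gene Plcb3 (0.980). Cplx1, for example, read 596 and 678 in the knockouts and 1127 to 1535 elsewhere. For Ngfr, over the 5 U74Bv2 arrays, they were Efr3b (1.000), Car11 (0.998), D430041D05Rik (0.998), Mpped2 (0.997) and Slc4a4, a bicarbonate transporter (0.996). Slc4a4 read 374 and 342 in the knockouts and 868 to 1081 elsewhere. Of the other named probe sets, 37 of 6724 reached an r of 0.95 with Gfra3 and 148 of 6740 with Ngfr. These are descriptions over few arrays that share the same genotype split.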

How the data were processed

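The deposited values are microarray intensities, 1 linear signal per probe set, which the authors computed in MAS5, per the submitters' processing notes; the sources used here do not give its version or scaling target. Trimmed means (2%) were 500.26 to 500.29 on U74Av2 and 497.61 to 498.38 on U74Bv2, so no scaling was added, and the number of arrays limits precision. Probe sets were named from the platform annotation through Entrez identifiers and a RefSeq table of GRCm38.p6 (10839 of 10855 and 10550 of 10581 matched). With R 4.3.3 and limma 3.58.1, log2(signal + 50.0 on U74Av2, 49.8 on U74Bv2) of 7453 and 7446 probe sets above the 40th percentile was fitted by genotype on all arrays of a type, with eBayes and an intensity trend, two-sided. The single wild-type U74Bv2 array was assumed to vary like the other genotypes. Knockout was also compared with all other arrays together.

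Deviations from the genotype means of same-numbered U74Av2 arrays correlated at 0.57, 0.62 and 0.53, so the numbers were taken to pair them. A blocked fit on that number is given where it changed a receptor call. For listed genes it is given where it changed a call against all other arrays. The labels do not say what a number shares.

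Members and gene lists were chosen with earlier results of these data known. Every receptor probe set is named; of each pathway list the called genes are named, or else the 3 brightest, and the 5 probe sets most correlated with the receptor of largest moderated t on each array type. Planned protein sequences are not shown, since no protein table was used here. Alternatives covered the pseudocount (0.02 and 0.4 of the trimmed mean), filter, trend, normalization, block and each array left out.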

Additional observations from a re-analysis of the deposited data

How the results depend on the processing

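Of 796 values of receptor probe sets under an alternative, 788 kept their side of the threshold, 4 lost a call and 4 gained one, 0 called values turned in direction and 37 uncalled values changed sign. Most of these values were not called to begin with, so the 788 say little of how firm the calls are. Ngfr against wild-type and Ret against all other arrays each lost the call under some alternatives. On U74Av2 the replicate block raised the receptors called from 0 to 1 (Gfra3) against heterozygote and against all other arrays. Against all other arrays, 1 (Ret) was also called with a pseudocount of 0.4 of the trimmed mean and with no filter, and 2 (Gfra3 and Ret) with block and no filter together, a setting added after the data were seen. On U74Bv2 the knockout and wild-type comparison had 0 calls with no filter and 0 without the intensity trend, in place of 1. Leaving out 1 array gave 1 to 2 calls between knockout and all other arrays on U74Bv2, with 2 (Ngfr and Ntrk2) without heterozygote array 2. The pairing check for U74Bv2 rested on a single pair of genotypes (correlation 0.10), so its numbers were not taken to pair arrays. With the block there, Ngfr kept its call, at -1.43 against all other arrays (adjusted p = 0.00340), and the block changed no other receptor call.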
